A study of Mus musculus with 54 samples.

Results

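Fresh single cells of the adult mouse kidney were compared between a warm and a cold tissue dissociation. The comparison used the 6 libraries, of 54 samples in the series, whose labels name fresh C57BL/6J cells profiled on the 10x Genomics platform: 3 cold-dissociated libraries with 11851 cells and 3 warm-dissociated libraries with 11257 cells, 23108 cells in all. The study asked how the way a kidney is taken apart and stored biases its cell profiles, and this pair of groups differs in the dissociation while the suspensions of both were loaded fresh. In both groups the mice were C57BL/6J males of 19 weeks, littermates that the study's methods give as AFAPIL.1DEL, with no treatment named, and the 3 kidneys of a protocol came from different mice.

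The warm libraries came from quartered kidneys digested at 37 °C with the Multi-tissue dissociation kit 2 of Miltenyi and spun at 400 g. The cold libraries came from minced kidneys triturated on ice with a protease of Bacillus licheniformis, an enzyme that still cuts at 4 °C, and spun at 1200 g. Enzyme, mincing and spin thus changed together with the temperature, and their parts in any difference cannot be told apart. Cell types were assigned by marker genes and are called like a type only on that ground (podocyte-like and so on, shortened hereafter to the type's name). Between 8 and 47 barcodes were shared by any pair of libraries, 0.340 to 1.36% of the smaller one.

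The libraries held 2356, 4084 and 5411 cells after cold and 2412, 5972 and 2873 after warm dissociation, with 5252363 to 14064480 UMIs (unique molecular identifiers, one per captured transcript) each. The median was 1192 to 1525 UMIs per cell in the cold and 1266 to 1542 in the warm libraries. Cells of at least 5000 UMIs gave 37.0, 12.4 and 1.49% of the UMIs in cold libraries 1, 2 and 3 and 37.0 to 41.3% in the warm ones, so cold libraries 2 and 3 stood apart from the other 4. The median mitochondrial share of a cell was 28.8 to 36.1% in the cold and 24.8 to 32.3% in the warm libraries (exact two-sided permutation p = 0.30, where 3 against 3 cannot go below 0.1). In these files a gene found in fewer than 10 cells of a library was mostly listed at 0 there, so that 475 of 13392 genes were at 0 in every cold and 434 in every warm library. A fold against a group at 0, over all cells or within a class, is therefore given only as a lower bound. So is one against a group of up to 3 UMIs in which a library lists the gene at 0. The bound allows 9 unseen cells in each library that lists the gene at 0 over all its cells, and at least 3 UMIs over the group. Where that bound was under 1 no fold is given.

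When cells are stressed or receive a growth signal, the immediate-early genes are transcribed within minutes without new protein synthesis. They encode transcription factors such as the AP-1 subunits Fos and Jun, and feedback proteins that shut the signal off again, such as the phosphatase Dusp1 and the mRNA decay factor Zfp36. Unfolded proteins set off a separate program through the heat shock factors, which switch on inducible chaperones such as Hspa1a and Hspa1b, while constitutive chaperones such as Hspa8 are made all the time. Transcription, like other reactions run by enzymes, slows down on ice.

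The genes that moved together in these libraries are introduced by the 250 bases upstream of their start, in which short elements of known stress factors were searched for. Higher in warm in at least 8 cell classes were 11 genes, of which the 10 with the most classes and, among ties, the largest mean change were searched, and 9 of these were in the RefSeq promoter table of GRCm38.p6. Klf6, tied at 8 classes and not among the 10, held none of the 3 elements searched. The cAMP response element TGACGTCA (either strand) lay in the windows of Dusp1, Btg2 and Ppp1r15a, 3 of 9, against 508 of 32851 promoters of the table, 1.55%. It starts 143, 166 and 12 bases before the gene start and is shown in capitals, written 5′ to 3′ along the gene.
Dusp1, chr17:26508473-26508722, minus strand: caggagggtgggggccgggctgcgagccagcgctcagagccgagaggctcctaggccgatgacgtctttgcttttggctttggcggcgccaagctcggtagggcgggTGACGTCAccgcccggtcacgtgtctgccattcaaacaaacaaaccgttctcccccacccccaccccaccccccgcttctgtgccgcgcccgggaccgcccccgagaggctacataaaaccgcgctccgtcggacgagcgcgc
Btg2, chr1:134079156-134079405, minus strand: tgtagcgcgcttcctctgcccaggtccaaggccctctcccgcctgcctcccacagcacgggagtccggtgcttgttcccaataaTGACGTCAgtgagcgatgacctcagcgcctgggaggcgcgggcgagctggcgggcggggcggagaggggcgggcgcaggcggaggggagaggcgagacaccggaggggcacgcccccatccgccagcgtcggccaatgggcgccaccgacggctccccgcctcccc
Ppp1r15a, chr7:45526269-45526518, minus strand: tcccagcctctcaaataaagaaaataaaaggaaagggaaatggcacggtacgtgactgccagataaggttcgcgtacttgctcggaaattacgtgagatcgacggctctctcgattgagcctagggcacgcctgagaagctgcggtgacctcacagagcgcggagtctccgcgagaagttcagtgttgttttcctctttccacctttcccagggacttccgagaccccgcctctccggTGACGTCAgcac
A heat shock element core, GAANNTTC (either strand), lay in the windows of Jun and Hspa1a, 2 of 9, against 2199 of 32851 promoters, 6.69%. Hspa1b, the near-identical neighbor of Hspa1a, carries it at the same place, 104 bases before its start, and in Jun it starts at 128 bases; the core is in capitals.
Hspa1a, chr17:34972157-34972406, minus strand: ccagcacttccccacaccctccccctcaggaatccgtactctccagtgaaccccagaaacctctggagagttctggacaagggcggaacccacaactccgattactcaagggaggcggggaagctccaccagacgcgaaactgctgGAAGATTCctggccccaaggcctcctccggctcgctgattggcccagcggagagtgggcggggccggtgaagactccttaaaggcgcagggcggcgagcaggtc
Hspa1b, chr17:34959239-34959488, minus strand: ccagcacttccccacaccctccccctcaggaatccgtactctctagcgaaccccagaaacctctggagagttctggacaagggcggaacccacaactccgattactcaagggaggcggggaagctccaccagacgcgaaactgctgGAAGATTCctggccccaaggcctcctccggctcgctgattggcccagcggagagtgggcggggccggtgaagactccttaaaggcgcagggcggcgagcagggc
Jun, chr4:95052223-95052472, minus strand: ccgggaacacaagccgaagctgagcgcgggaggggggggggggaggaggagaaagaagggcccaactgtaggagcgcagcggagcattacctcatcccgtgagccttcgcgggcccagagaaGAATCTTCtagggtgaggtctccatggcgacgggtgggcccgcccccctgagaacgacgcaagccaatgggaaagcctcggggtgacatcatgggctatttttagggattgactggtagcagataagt
No CArG box, the element of serum response factor, was found in the 9 windows, against 482 of 32851 promoters, 1.47%. A match is a description of the letters in this window and shows no binding.

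UMIs were first summed over all cells of a library, which gives each library a profile like that of a bulk sample. In such sums, fewer cells of a type and less RNA per cell cannot be told apart. Of 12061 genes compared by edgeR's quasi-likelihood test at a Benjamini-Hochberg adjusted p under 0.05, 948 (7.86%) were higher and 853 (7.07%) lower in warm libraries, with a median log2 difference of -0.03 over all genes. Of these, 136 and 322 changed by more than 1 on the log2 scale, and 946 and 849 did not overlap between the groups. The share without overlap among all genes tested was not counted, so this is no support beyond the calls themselves. The counts of called genes rested on the libraries used. Without cold library 2 they were 190 and 254, without cold library 3 343 and 411, without warm library 1 379 and 392, and without warm library 3 414 and 396. With the same number of cells of each class drawn from every library, 2162 cells a library, 238 genes were higher and 149 lower of 11210. This matched set holds the 11 classes with at least 10 cells in every library and unnamed cells, and no podocytes or mesangial and mural cells, which were too few in the warm libraries. The full libraries held 2356 to 5972 cells, and no unmatched draw of 2162 cells was made. The part of the smaller cell number in calls lost with the classes matched, here and below, was therefore not tested.

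Levels are given as counts per 1000000 UMIs (CPM) of the genes tested in a table, with the library total scaled by edgeR's TMM factor, so they can lie above or below the unscaled share. Summed marker levels are per 1000000 of all UMIs, unscaled. Most genes of the AP-1 family rose. Fos was at 0, 3.96 and 3.10 scaled CPM in the 3 cold libraries and at 555, 488 and 459 in the 3 warm ones, a log2 difference of 7.6 ± 0.42 (SE, adjusted p = 2.30e-05). Fosb was listed at 0 in all cold libraries and at 115, 134 and 104 CPM in the warm ones, at least 29.6-fold higher. The groups lay far apart for both genes, with no warm library near a cold one. Jun went from 28.7, 37.5 and 32.5 CPM to 732, 684 and 534 (4.30 ± 0.16, adjusted p = 4.92e-06), and Junb from 27.4, 40.6 and 31.5 CPM to 482, 352 and 367 (3.59 ± 0.18, adjusted p = 1.28e-05). Atf3, a stress-induced partner of the family, went from 0, 2.23 and 2.16 CPM to 62.9, 49.9 and 60.9 (5.16 ± 0.38, adjusted p = 9.28e-05). Of the 8 AP-1 genes tested, 6 were higher and none lower, with a median log2 difference of 3.94. Fosl2 (0.16, adjusted p = 0.665) and Maff (3.04, adjusted p = 0.0721) did not pass, and Maff was called without cold library 2, where it is listed at 0 in the cold libraries left. None of the 6 calls was lost when any library was left out.

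Among the other immediate-early transcription factors 10 of 15 were higher and none lower, with a median of 0.95, or 0.67 with the gene listed at 0 taken at its bound. Egr1, a zinc finger factor, was at 0, 6.31 and 2.16 CPM in the cold and 77.8, 93.9 and 83.3 in the warm libraries (4.78 ± 0.49, adjusted p = 6.12e-04). Ier2 was at 17.4, 35.7 and 25.5 CPM after cold and 129, 137 and 101 after warm dissociation (2.20 ± 0.23), and Klf6 at 24.4 to 32.1 and 122 to 145 CPM (2.20 ± 0.13). For each of these genes the lowest warm library lay above the highest cold one. Nr4a1, a nuclear receptor gene, rose by 2.91 and Nr4a2 by at least 1.59-fold. Cebpb (0.34, adjusted p = 0.219), Hes1 (-0.18) and Klf10 (0.19) were not called. Cyr61, which encodes a secreted matrix protein and is itself an immediate-early gene, was among the 10 largest rises at 6.41, 7.54 and 7.69 CPM in cold and 186, 219 and 114 in warm libraries (4.57 ± 0.26, adjusted p = 2.56e-05).

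Genes that limit such signals were raised beside them. Dusp1, a phosphatase of MAP kinases, was at 35.4, 50.6 and 39.4 CPM after cold and 368, 385 and 255 after warm dissociation (3.00 ± 0.19, adjusted p = 4.34e-05). Zfp36, which marks inflammatory mRNAs for decay, was at 13.2, 18.1 and 18.9 CPM and 92.8, 112 and 87.9 (2.54 ± 0.16, adjusted p = 4.34e-05). The cold libraries were the lower 3 for both. Socs3, an inhibitor of cytokine signaling, rose by 3.32, the G protein regulator Rgs1 by 4.30 and Dusp5 by 2.77. In all, 13 of 20 feedback genes were higher and none lower, with a median of 1.55. The paralogs Zfp36l1 (0.13) and Zfp36l2 (0.20) were not called. Gadd45a, a growth arrest gene, stood at -0.24 (adjusted p = 0.363) over all cells and at 1.38 (adjusted p = 0.00589) with the cell classes matched.

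The NF-kB pathway and the cytokine genes it can switch on were raised in part. Of 13 pathway genes 4 were higher and none lower, with a median of -0.07: the deubiquitinase Tnfaip3 rose by 2.18, the nuclear cofactor Nfkbiz by 2.15, the subunit Rel by 1.01 and the inhibitor Nfkbia by 0.78. Rel lost its call without cold library 2 (1.01). Nfkb1 was at 13.6 to 14.5 CPM in the cold and 10.5 to 11.1 in the warm libraries (-0.40, adjusted p = 0.0515). Of 9 chemokine, cytokine and adhesion genes, 8 were higher and none lower, with a median of 3.13, or 1.98 with bounds. Ccl3 was at 0, 2.23 and 4.05 CPM and 78.2, 36.5 and 56.0 (4.63 ± 0.52), Ccl4 at 5.34, 17.8 and 18.0 CPM and 139, 106 and 125 (3.13 ± 0.32), and Il1b at 2.31 to 5.40 and 35.1 to 47.6 CPM (3.16 ± 0.24). All 3 genes of leukocyte recruitment and fever thus lay higher in every warm library. Cxcl2, a chemokine for neutrophils, rose by at least 2.12-fold and Tnf by at least 1.65-fold, and the call of Tnf was lost without warm library 1 (fitted 7.57) or 3 (7.68). Ccl2 was not called (2.68, adjusted p = 0.213).

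Inducible heat shock genes rose as well, Hspa1a by the most. Hspa1a, the main stress-induced chaperone of the HSP70 family, was at 6.23, 7.30 and 6.75 CPM after cold and 351, 310 and 551 after warm dissociation (5.89 ± 0.25, adjusted p = 9.63e-06). Hspa1b went from 4.80, 3.21 and 6.61 CPM to 21.8, 39.2 and 60.4 (3.06 ± 0.39, adjusted p = 0.00169), though reads of these near-identical genes can be split between them. Their cochaperone Dnajb1 went from 14.3 to 21.3 CPM in the cold to 55.0 to 79.5 in the warm libraries (1.95 ± 0.18). The small heat shock gene Hspb1 rose by 1.21 and Hsp90aa1, the inducible HSP90, by 0.81, from 196, 189 and 231 CPM to 309, 360 and 414. In all 9 of 13 inducible heat shock genes were higher and none lower, with a median of 0.58, and 5 of 12 with the classes matched (median 0.51). Ahsa1 (0.10), Hsph1 (0.15) and Chordc1 (0.48, adjusted p = 0.0834) were not called. Of the constitutive chaperones 1 of 8 was called higher, against 7.86% of all genes, and the difference from the inducible genes was not tested. It was Cct4 (0.43, and called in 2 of the 6 sets without a library, those without cold library 1 and without warm library 2, over a range of 0.36 to 0.51), and the list had a median of 0.23. Hsp90ab1, the constitutive HSP90, was at 528, 563 and 628 CPM after cold and 646, 652 and 760 after warm dissociation (0.26, adjusted p = 0.115), with the groups apart. Hspa8 was at 965 to 1460 CPM in the cold and 1200 to 1670 in the warm libraries (0.28, adjusted p = 0.273), and the groups overlapped.

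**Figure D1:**
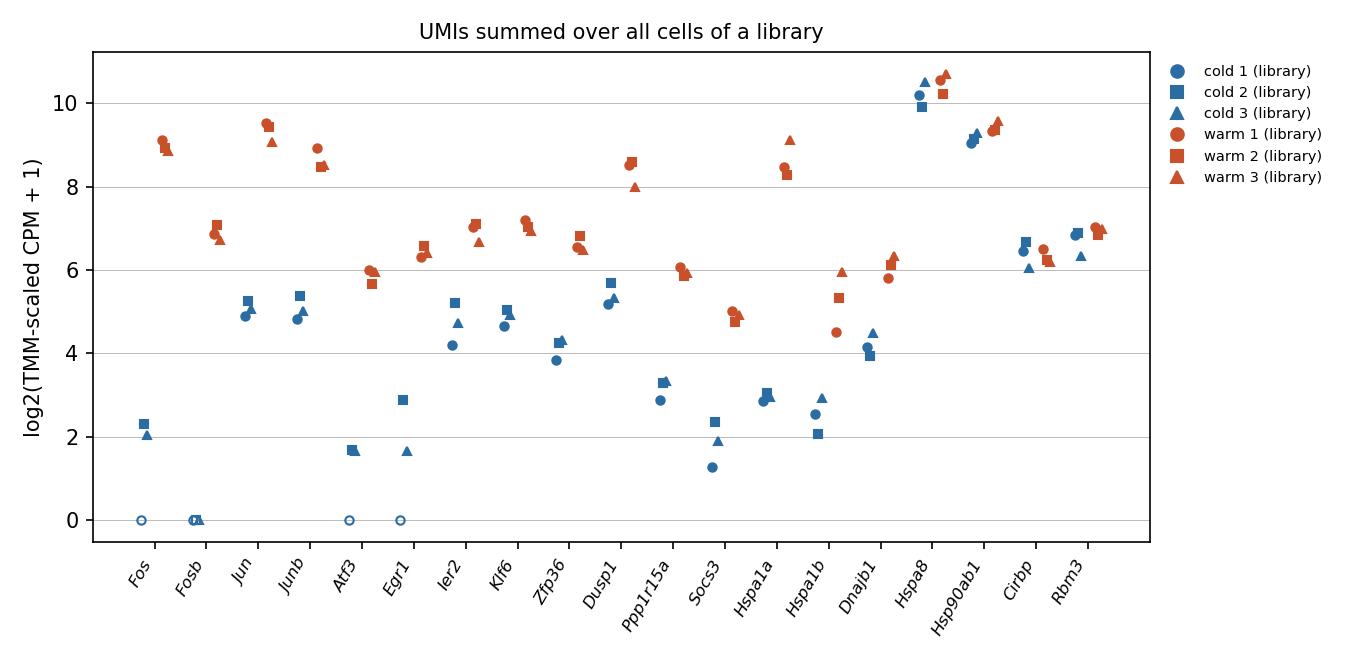
CPM plus 1, on a log2 scale, of 19 stress and chaperone genes summed over all cells of each library, with cold libraries in blue, warm libraries in orange and hollow markers for a gene listed at 0. Fos, Fosb, Jun and Hspa1a lie far above the cold libraries in every warm library, while the groups of Hspa8, Cirbp and Rbm3 overlap.

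Other stress programs moved little. In the unfolded protein and integrated stress response, 2 of 14 genes were higher and 1 lower, with a median of -0.02. Ppp1r15a, the phosphatase subunit that ends the integrated stress response, was at 6.41, 8.78 and 9.18 CPM after cold and 66.5, 57.1 and 59.8 after warm dissociation (2.89 ± 0.15, adjusted p = 1.28e-05). The other 2 were Herpud1 (0.67, lost at 0.64 without cold library 2), which takes part in protein degradation at the endoplasmic reticulum, and Pdia4 (-0.47, called only without cold library 1 among the 6 sets, -0.56 to -0.39). Hspa5, the main chaperone of the endoplasmic reticulum, was at 205 to 232 and 168 to 276 CPM (0.01, adjusted p = 0.962). Neither gene of the cold-inducible RNA-binding list was called by edgeR or DESeq2, nor had an unadjusted edgeR p under 0.05: Rbm3 was at 113, 118 and 79.2 CPM after cold and 130, 113 and 125 after warm dissociation (0.25, adjusted p = 0.291), and Cirbp at 64.7 to 101 and 71.9 to 90.1 CPM (-0.10, adjusted p = 0.736). Of 12 splicing genes that respond to temperature, 2 were higher and 1 lower (median 0.15), namely Tra2b (0.53), Clk1 (0.51) and Luc7l3 (-0.57). Those 3 calls held in 1 or 2 of the 6 sets without a library, in which the values were 0.43 to 0.66, 0.39 to 0.65 and -0.68 to -0.48.

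In the hypoxia and glycolysis list 2 of 13 genes were higher and 1 lower (median 0.04), with the lactate dehydrogenase gene Ldha at 267 to 379 CPM in the cold and 521 to 552 in the warm libraries (0.80 ± 0.13, adjusted p = 0.00564). Of 10 metallothionein and oxidative stress genes 2 were higher, Gclm (0.66, lost without cold library 2 or 3, range 0.57 to 0.78) and Sqstm1 (0.40, called only without cold library 1, range 0.31 to 0.48), and the metallothionein gene Mt1 was at -0.01. Of 10 genes of the p53 pathway and apoptosis 1 was higher, Pmaip1 (1.16, from 5.16 to 9.04 CPM to 15.0 to 21.6), and its call was lost without cold library 2 (1.23). None of 7 proliferation genes was called by edgeR or DESeq2, 0 had an unadjusted edgeR p under 0.05 (median 0.07), 1 of 13 circadian clock genes was higher and 1 lower (Bhlhe40 at 0.87 and Clock at -0.51, the latter called only without cold library 1 or warm library 2, median -0.02), and of 85 cytosolic ribosomal protein genes 2 were higher and 1 lower (median 0.08). Malat1, a nuclear noncoding RNA, was at 33300 to 50800 CPM and 36100 to 55000 (-0.00). Of 13 genes of the mitochondrial genome 1 was lower, mt-Atp6 (-0.37), a call lost in each of the 6 sets without a library (-0.44 to -0.26).

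The largest falls over all cells were in genes of the podocyte, the cell that wraps the capillaries of the glomerulus. Nphs1, the nephrin gene of the filtration slit, was at 58.5, 119 and 123 CPM after cold dissociation and Clic3 at 73.3, 134 and 116, both listed at 0 in all warm libraries and at least 12.7-fold and 16.5-fold lower. All 10 podocyte markers were lower, with a median log2 difference of -4.61, or -3.87 with bounds, and their summed level was 597, 917 and 794 CPM against 43.8, 52.0 and 54.0. Of the cold UMIs of Clic3, 94.6% were in the cells of the podocyte class. Genes of smooth muscle and mesangium, the contractile cells of vessels and glomeruli, fell too: Myh11, the smooth muscle myosin, was at 32.6, 28.1 and 17.5 CPM and at 0, at least 4.73-fold lower, and 6 of 11 mesangial and mural markers were lower and 1 higher.

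Some MHC genes were lower over all cells. H2-Q7, a nonclassical MHC class I gene, was at 95.7, 130 and 131 CPM in the cold and 18.7, 23.7 and 19.1 in the warm libraries (-2.52 ± 0.16, adjusted p = 4.34e-05), and at -0.20 with the classes matched. Its neighbor H2-Q6 was at -1.83 over all cells and 0.29 matched, and reads of these paralogs can be split between them. Of the H2-Q7 UMIs 77.5% were in the podocyte class after cold and 6.55% after warm dissociation, and 76.0 and 7.72% of those of H2-Q6. The matched set holds no podocytes, so for both genes its values leave out the cells with most of their cold UMIs. The MHC class II list had 5 of 6 genes lower (median -0.41), among them Cd74, the invariant chain, at 3780 to 4430 and 2570 to 2770 CPM (-0.65), and none lower with the classes matched (median -0.07). H2-Ab1 (-0.28) and H2-Aa (-0.27), chains of the class II molecule, lost their calls in each of the 6 sets without a library. B cells, T cells and monocytes were fewer in the warm libraries at the same time. Macrophage markers summed to 1310, 1310 and 1410 CPM after cold and 965, 973 and 937 after warm dissociation, with 5 of 9 lower. The deeper macrophage cluster, with Cd74 among its leading genes, had 54, 132 and 183 cold and 40, 114 and 47 warm cells. The shallower one had 65, 78 and 140 cold and 72, 222 and 88 warm cells. The part of these cells in the class II values over all cells was not tested apart from this matching, which did not match clusters within a class.

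Genes of the proximal tubule, the reabsorbing segment that makes up most of these cells, were higher in turn. Of 20 transport and metabolism genes 10 were higher and none lower (median 0.46), and 5 with the classes matched (median 0.15). Kap, an androgen-dependent gene of this segment, was at 7170, 5050 and 3910 CPM after cold and 10700, 17000 and 12100 after warm dissociation (1.30 ± 0.23, adjusted p = 0.00793), and its call was lost without cold library 2 (1.25). Slc22a6, the organic anion transporter, rose by 0.92, while Lrp2, the endocytic receptor megalin, was at 363 to 472 and 328 to 428 CPM (-0.19).

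The number of cells in each marker class was then compared with the total of its library. Podocytes made up 54, 147 and 150 cells of the 3 cold libraries and 0, 4 and 1 of the warm ones, a mean of 2.89% ± 0.661 (SD, n = 3) against 0.0339% ± 0.0335 and a log2 difference of -5.95 (adjusted p = 1.83e-07). With each cell named by its own top marker score they were 92, 204 and 247 cold and 3, 31 and 6 warm cells, a smaller gap. Of the 13 classes 7 (53.8%) were lower and 1 (7.69%) was higher after warm dissociation. Mesangial and mural cells fell from 1.23% ± 0.229 to 0.229% ± 0.0430 (-2.45, adjusted p = 1.78e-05), with 26, 61 and 59 cells against 5, 12 and 8. By the top marker score of each cell they were 56, 112 and 147 cold and 29, 78 and 36 warm cells, a smaller gap. Principal cells of the collecting duct, which take up water through Aqp2, fell from 1.61 to 0.661% (-1.23, adjusted p = 0.00475). Podocytes and mesangial cells both belong to the glomerulus. The mesangial and mural class was 1 cluster, led by Acta2, Ren1, Myl9 and Rgs5, and mesangial cells were not counted apart in it.

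Leukocytes and endothelium were lower by less. Monocytes went from a mean of 1.77% to 0.815% (-1.16), B cells from 2.28 to 1.04% (-1.11), T cells from 2.18 to 1.35% (-0.73, adjusted p = 0.0202) and endothelial cells from 5.59 to 3.90% (-0.53, adjusted p = 0.0253). The call of T cells was lost without cold library 3, warm library 2 or warm library 3 (-0.74 to -0.63), that of monocytes without warm library 2 (-1.16) and that of endothelial cells in every set but the one without cold library 1 (-0.66). With the library totals scaled by trimmed means (TMM), T cells (-0.37) and endothelial cells (-0.17) lost their calls and the connecting tubule (0.52) and proximal tubule (0.50) gained one. When cells took the name of their own top marker score monocytes lost theirs (-0.39) and the connecting tubule gained one (0.61). At a coarser clustering principal cells lost theirs (-0.22). Macrophages made up 5.39 and 4.99% (-0.11) and were not called. No class of NK cells or dendritic cells was named, and such cells were not counted apart from the T cells and monocytes. The T cell cluster was led by Ccl5 and Nkg7 and also held 3 of the NK cell markers. The monocyte cluster had Cd209a among its leading genes and also held 4 of the dendritic cell markers. In addition, a cluster of 215 cells stayed unnamed although it held 11 of the endothelial markers. Its leading genes, such as Sox17, Gja4 and Cldn5, included 0 markers of the endothelial list and 1 of another class. It had 18, 61 and 62 cold and 6, 47 and 21 warm cells, which the endothelial numbers leave out.

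Cells of the ascending loop of Henle, the salt-reabsorbing limb marked by Umod and Slc12a1, were the class called higher in the main test, from 2.46, 2.89 and 2.90% to 6.01, 5.59 and 8.18% (1.24 ± 0.19, adjusted p = 1.98e-04). Their median depth was 1794, 2044 and 1517 UMIs a cell after cold and 898, 1248 and 891 after warm dissociation (exact permutation p = 0.10, the smallest possible). They fell into a cluster of lower depth, with 25, 38 and 60 cold and 99, 226 and 152 warm cells, and a deeper one, with 33, 80 and 97 cold and 46, 108 and 83 warm cells, so that most cold cells of the class were in the deeper cluster and most warm cells in the shallower. Proximal tubule cells were 61.5, 53.7 and 55.1% of the cold and 65.6, 65.5 and 62.0% of the warm libraries (0.18, adjusted p = 0.304, and called at 0.24 without cold library 1). Connecting tubule (0.17), distal convoluted tubule (-0.17) and intercalated cells (-0.32) were not called. Unnamed cells made up 9.60 and 8.56%.

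**Figure D2:**
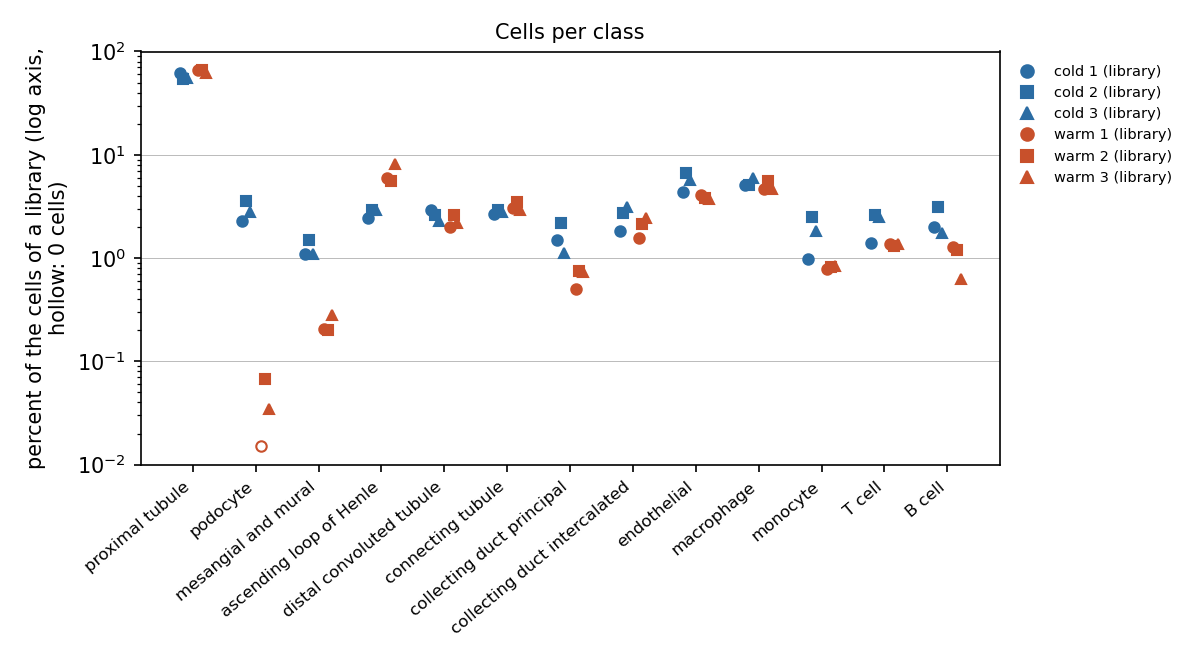
Percent of the cells of each library in each marker class, on a log axis, with 3 cold libraries in blue, 3 warm libraries in orange and a hollow marker for 0 cells. Podocytes, and mesangial and mural cells, lie far lower in the warm libraries, and ascending loop of Henle cells lie higher in each of them.

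To separate the response of cells from the change in their numbers, UMIs were summed per library within each of the 11 classes with enough cells. Several AP-1 genes were higher in most classes. Fos and Jun were called in 11 of 11, Junb in 10 of 10 tested, Fosb in 9 of 9 and Jund in 9 of 11, where Jund rose by 1.02 to 3.34. In the connecting (0.57, adjusted p = 0.454) and distal convoluted tubules (0.53, adjusted p = 0.472) Jund was not called. Hspa1a was called in 9 of 9 classes tested, Ier2 in 8 of 8, Dusp1 and Ppp1r15a in 8 of 9, Klf6 in 8 of 9, Btg2 in 8 of 11, Zfp36 in 7 of 8, Egr1 in 6 of 6 and Atf3 in 5 of 5. A gene near 0 in the cold libraries passed the filter on low counts through its warm ones. A full share of the classes tested is thus no support by itself. Left out for Hspa1a were the connecting tubule, at 26.5, 38.7 and 8.76 unscaled CPM after cold and 24.9, 86.6 and 89.8 after warm dissociation. The distal convoluted tubule was left out too, at 28.6, 28.3 and 18.4 and 89.3, 37.3 and 395. Leaving out any library cost Fos, Jun, Junb, Dusp1, Hspa1a, Egr1 and Atf3 no call in any class, while Jund in intercalated cells (0.85 to 1.19) was called only without warm library 3 among the 6 sets. Ppp1r15a in the loop of Henle (2.96 without cold library 2, 2.44 without cold library 3), Zfp36 in T cells (3.10 without cold library 3), Ier2 in macrophages and proximal tubule (1.76 and 2.34 without cold library 3) and Klf6 in B cells (2.00 without cold library 2) lost their calls in those sets. Of the constitutive chaperones, Hspa8 was called in 4 and Hsp90ab1 in 2 of 11 classes, and the Hspa8 calls in T cells, monocytes and B cells were lost in 1, 3 and 4 of the 6 sets. Cirbp, Rbm3 and Malat1 were called in none of 11 classes by edgeR, with an unadjusted p under 0.05 in 1, 3 and 1 of them, and DESeq2 called Cirbp in the proximal tubule.

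Over all classes 461 genes were higher in at least 1 class, 350 of them in 1 class and 2 in all 11, and 489 were lower, 467 of them in 1 class. The classes tested from 949 genes in B cells to 9758 in the proximal tubule, which alone had 272 higher and 384 lower calls. A gene called in 1 class may be untested in others, so these counts do not show changes particular to a class. Of the 4 genes lower in 7 or more classes, all encode hemoglobin. Among them 11 genes were higher in at least 1 class and lower in at least 1 other, such as Ier3, an early-response survival gene, which was higher in 4 and lower in 1 of 7 classes.

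**Figure D3:**
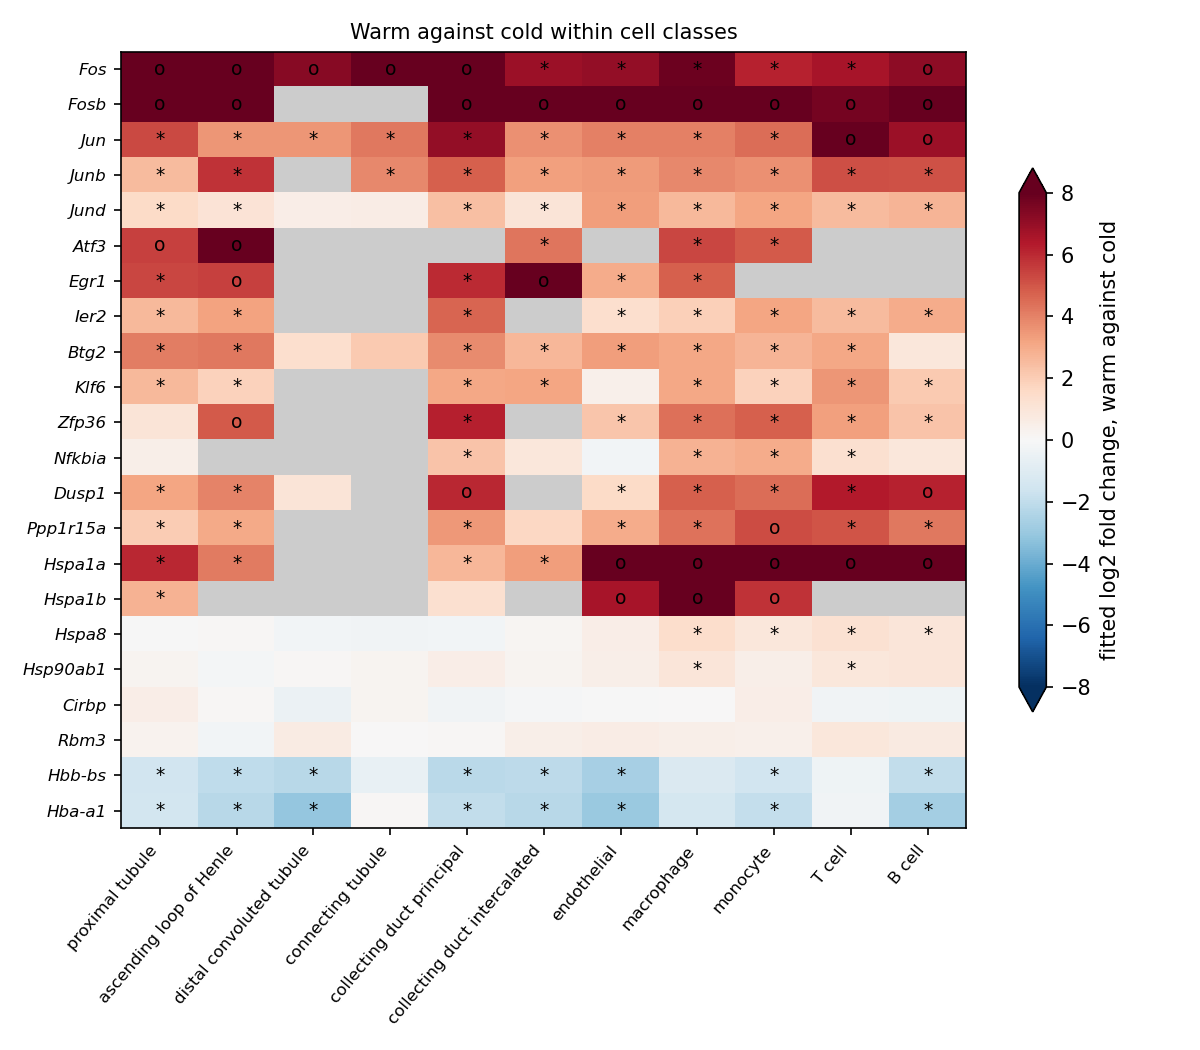
Log2 difference, warm against cold, of stress, chaperone and hemoglobin genes in each of 11 cell classes, with stars for called genes, circles for called genes with a group at 3 UMIs or fewer or listed at 0, and grey for genes not tested. Fos and Jun are called higher in all 11 classes, Btg2 in 8 and Hspa8 in 4, and both hemoglobin genes are called lower in 8.

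In principal cells of the collecting duct 50 genes (2.43% of 2060) were higher and 17 (0.825%) lower, and no library left out moved the total of 67 beyond 47 to 89. Fos was listed at 0 in the 3 cold libraries and at 3950, 2970 and 3390 CPM in the warm ones, at least 16.8-fold higher. Jun went from 7.05, 11 and 17.7 CPM to 1790, 1240 and 2060 (7.06 ± 0.34), and Zfp36 from 7.05, 16.6 and 8.83 to 1180, 1050 and 511 (6.19 ± 0.40). No other tubular class reached these levels of Fos, Jun or Zfp36 in its warm libraries. Gdf15, a stress-induced hormone, went from 7.05, 0 and 26.5 CPM to 181, 622 and 694 (5.68 ± 0.53), and Ier3 from 28.2, 38.7 and 53 to 634, 555 and 367 (3.69 ± 0.32). Neat1, a nuclear noncoding RNA, rose by 1.41. Aqp4, the water channel of the basal membrane, was at 317, 227 and 300 CPM after cold dissociation and listed at 0 in the warm libraries, where 12, 45 and 21 cells of the class were left.

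In intercalated cells of the collecting duct, which secrete acid or base, 22 genes (0.842% of 2613) were higher and 5 (0.191%) lower, and the total of 27 was 51 without warm library 3. Fos went from 0, 0 and 19.5 CPM to 1230, 1280 and 284 (6.87 ± 0.59), Egr1 from 0 in all cold libraries to 414, 360 and 59.2, at least 7.38-fold higher, and Hspa1a from 13.7, 19.8 and 31.2 to 244, 282 and 154 (3.36 ± 0.37). Warm library 3 held the lowest of the warm values for each of these genes and still lay above the cold ones. The median depth of the class was 3391, 2146 and 1520 UMIs a cell after cold and 1188, 1161 and 689 after warm dissociation (exact permutation p = 0.10, the smallest possible). The class joined a deeper cluster led by Aqp6 and Slc4a1, with 12, 41 and 40 cold and 8, 29 and 4 warm cells, and a shallower one. The shallower cluster, with Slc26a4 among its leading genes, had 31, 71 and 128 cold and 30, 100 and 67 warm cells. The part of depth and of these clusters in the values was not tested. Of the 5 lower genes 4 encode hemoglobin and the other, Pam, an enzyme of peptide amidation, was at 1010 to 1590 and 652 to 876 CPM (-0.82, called only without cold library 3 or warm library 3).

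The connecting and distal convoluted tubules changed in the fewest genes in the main setting. With cells named by their own score the distal convoluted tubule had 15 called genes and intercalated cells 11. In the connecting tubule 7 genes (0.380% of 1843) were higher and 0 (0%) lower by edgeR, with 176 at an unadjusted p under 0.05, and the total was 3 without cold library 2 and 4 without warm library 3. Fos was listed at 0 after cold and at 358, 388 and 969 CPM after warm dissociation, at least 3.09-fold higher, and Jun went from 22.9, 5.00 and 0 CPM to 188, 147 and 127 (4.19). Gadd45g, a growth arrest gene, rose by 2.71 and kept its call in 1 of the 6 sets without a library (2.23 to 3.95). The median depth of connecting tubule cells was 1042, 1666 and 1236 UMIs after cold and 751, 928 and 707 after warm dissociation, without overlap, and its part was not tested either. In the distal convoluted tubule 5 genes (0.243% of 2059) were higher and 4 (0.194%) lower, and the total of 9 was 14 without cold library 3 and 17 without warm library 2. Fos rose there by at least 2.16-fold and Jun by 3.53, from 5.52 to 16.4 CPM to 84.8 to 197, and all 4 lower genes encode hemoglobin. Of the other 3 higher genes, S100g (1.25), Wfdc2 (0.79) and Ly6a (0.57), S100g is a calcium-binding protein of these segments, and its value was -0.57 when cells took the name of their own top marker score. The call of S100g was lost without cold library 2 (1.14), that of Wfdc2 without cold library 2 or warm library 1 (0.66 to 0.90 over the sets) and that of Ly6a in 4 of 6 sets (0.55 to 0.62).

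In the ascending loop of Henle 63 genes (2.35% of 2684) were higher and 73 (2.72%) lower. The total of 136 was 219 without cold library 1, 46 without cold library 2, 65 without cold library 3 and 87 without warm library 1. Fos was listed at 0 in the cold and at 980, 575 and 813 CPM in the warm libraries, at least 4.70-fold higher, and Junb went from 14.5, 0 and 10.1 CPM to 552, 333 and 409 (5.77 ± 0.42). Ier3 fell here, from 102, 182 and 121 CPM to 46.6, 39.6 and 34.8 (-1.80 ± 0.29, adjusted p = 0.00102), with no overlap between the groups. Neat1 was also lower (-0.90, lost at -0.41, -0.81 and -0.91 without cold library 3, warm library 1 or warm library 2). Jund rose by 1.08 over the class and stood at -0.00 in the shallower cluster alone, and the depth of the cells differed between the groups as given above.

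Endothelial cells had 52 genes (1.33% of 3922) higher and 16 (0.408%) lower, a total of 68 that was 43 without cold library 2. Hspa1a went from 0, 0 and 3.48 CPM to 4010, 2660 and 3430, a ratio of 2430 with a 95% counting interval of 435 to 95900. Jun went from 226, 263 and 191 CPM to 5100, 3360 and 2870 (4.05 ± 0.24) and Hsp90aa1 from 85.3, 59.9 and 129 to 752, 544 and 774 (2.89 ± 0.24). The lowest warm endothelial library held more Hspa1a than the highest warm library of any tubular class where it was tested. Adamts1, a protease of the extracellular matrix, rose by 3.76, and of the adhesion molecules that hold leukocytes Vcam1 rose by 1.81 and Icam1 by 1.07 (lost at 0.94 and 0.96 without cold library 2 or warm library 1). Klf2 (0.21) and Klf6 (0.41), the former an endothelial factor of laminar flow, were not called. Umod, a marker of the loop of Henle, was at 24.4, 46.6 and 55.6 CPM and 56.6, 181 and 373 in these cells (2.17, and called only without cold library 3 or warm library 1 among the 6 sets, range 1.54 to 2.56), and the summed loop markers were at 131, 170 and 183 CPM and 269, 545 and 1390, so loop of Henle RNA moved with this class, and its part in the endothelial values was not tested.

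Macrophages had 75 genes (3.35% of 2239) higher and 7 (0.313%) lower, a total of 82 that was 50 without cold library 2. Fos went from 0, 16.0 and 16.0 CPM to 4320, 1810 and 2590 (7.85 ± 0.50). The chemokine genes rose strongly: Ccl3 went from 0, 48.1 and 86.4 CPM to 2260, 944 and 1570 (4.96 ± 0.55) and Ccl4 from 119, 225 and 365 to 4040, 2320 and 3750 (3.79 ± 0.35). Cxcl2 was listed at 0 after cold and at 493, 542 and 566 CPM after warm dissociation, at least 1.94-fold higher. Il1b rose by 3.17 and Tnf by at least 1.31-fold. Of the inducible heat shock genes 5 of 8 were called higher, and of the constitutive chaperones 2 of 8, with Hspa1a at a ratio of 880 (301 to 4270), Hspa1b at least 45.5-fold higher, Dnajb1 at 5.13 and the constitutive Hspa8 at 1.40, from 920, 730 and 1090 CPM to 2830, 1590 and 2830 (lost at 1.24 without cold library 2).

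Monocytes had 88 genes (5.88% of 1497) higher and 11 (0.735%) lower, the highest share of genes raised in any class, and no library left out moved the total of 99 beyond 72 to 100. Il1b went from 0, 73.1 and 39.0 CPM to 1980, 1680 and 840 (5.03 ± 0.50), and Nfkbia from 230, 263 and 137 to 2160, 1650 and 1290 (2.99 ± 0.28). Hspa1a had no UMI in cold monocytes and was at 1650, 1080 and 2650 CPM in the warm ones, at least 261-fold higher with 3 UMIs allowed over the cold group. Rgs1 rose by at least 2.79-fold. Of the lists, 4 of 4 chemokine, cytokine and adhesion genes, 3 of 4 NF-kB genes, 5 of 7 inducible heat shock genes and 1 of 4 constitutive chaperones were called higher and none lower. The kinase gene Pim1 rose by 3.13.

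B cells had 45 genes (4.74% of 949) higher and 17 (1.79%) lower, a total of 62 that was 36 without cold library 2. Junb went from 197, 127 and 103 CPM to 6150, 3770 and 4540 (5.07 ± 0.27). Hspa1a went from 0 in the cold B cells to 1770, 737 and 2950 CPM, at least 116-fold higher with 3 UMIs allowed over the cold group. Nr4a1, which B cells induce on receptor signaling, rose by at least 7.79-fold, and Cd69, an early activation marker, by 1.76. In T cells 55 genes (3.84% of 1432) were higher and 2 (0.140%) lower, a total of 57 that was 36 without cold library 3. Dusp1 went from 13.4, 8.15 and 24.0 CPM to 1250, 1390 and 1530 (6.37 ± 0.31), and Klf6 rose by 3.52 and Cd69 by 3.14. The 2 lower genes of T cells were Hmha1 (-1.03), which was lower in all 4 immune classes tested, and Actb (-0.97), the cytoskeletal actin. Both calls were lost in 4 or 5 of the 6 sets without a library, over ranges of -1.10 to -0.90 and -1.11 to -0.75.

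Proximal tubule cells, the largest class, had 272 genes (2.79% of 9758) higher and 384 (3.94%) lower. The total of 656 was 1526 without cold library 1, 60 without cold library 2, 106 without cold library 3, 56 without warm library 1 and 135 without warm library 3. Fos was at 0, 0.457 and 0.240 CPM after cold and 159, 242 and 135 after warm dissociation, at least 27.0-fold higher, Fosb at least 11-fold, and Jun went from 8.48, 11.9 and 10.3 CPM to 436, 502 and 239 (5.25 ± 0.28, adjusted p = 1.13e-06). No other class tested had warm Fos levels this low, also on unscaled CPM (176, 238 and 141 here). Hspa1a went from 0.848, 0.457 and 1.92 CPM to 17.3, 107 and 91.5 (6.05 ± 0.74), and Klf4 from 0.848, 0 and 0.719 to 28.2, 28.8 and 11.5 (5.48 ± 0.57). Pdk4, a kinase that turns metabolism from glucose to fat, rose by 3.18 and lost its call without cold library 2 (3.01) or 3 (3.40). Zfp36, called in the 7 other classes where it was tested, was at 13.3, 19.4 and 20.1 CPM and 24.7, 59.1 and 20.5 (1.02, adjusted p = 0.0850), with the groups just apart. Among the lower genes was Slc7a8, a neutral amino acid transporter of this segment, at 82.6, 106 and 121 CPM and 42.0, 49.1 and 50.2 (-1.13 ± 0.15, adjusted p = 0.00268). Of the 13 genes of the mitochondrial genome 6 were lower in this class and none higher, with a median of -0.52. Among them was mt-Co1, a subunit of cytochrome c oxidase, at 29900, 54400 and 61100 CPM after cold and 18000, 32600 and 23200 after warm dissociation (-0.98 ± 0.24, adjusted p = 0.0367), where the groups overlapped and the call was lost in 4 of the 6 sets without a library (-1.23 to -0.77) and by DESeq2. The median mitochondrial share of a proximal tubule cell was 29.5, 37.4 and 37.5% in the cold and 24.2, 31.3 and 27.7% in the warm libraries (exact permutation p = 0.20).

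Depth differed among the proximal tubule libraries: 39.7, 42.7 and 23% of the cells had at least 2000 UMIs after cold and 38.9, 44.5 and 39.9% after warm dissociation, with cold library 3 the lowest. The class was therefore also tested by depth. Below 2000 UMIs 37 genes were higher and 21 lower of 6201, and from 2000 UMIs on 397 and 501 of 9189. Jun rose by 3.65 in the shallower and 5.52 in the deeper cells, Dusp1 by 1.71 and 3.31 and Hspa1a by 4.87 and 6.43, so these 3 genes were raised at both depths. Jund (0.65, adjusted p = 0.0671), Klf6 (1.27, adjusted p = 0.0550) and Klf2 (1.28, adjusted p = 0.203) were not called in the shallower cells, where Klf4 and Btg2 were not tested. With every cell thinned to 500 UMIs 80 genes were higher and 106 lower of 5695, Fos at 7.90 and Jun at 4.59. A cluster of this class with 7, 105 and 6 warm and no cold cells contributed to warm library 2, and without it Fos was at 142, 141 and 118 CPM in the warm libraries in place of 159, 242 and 135, and 346 genes were higher and 517 lower of 9749. Pdk4 then rose by 2.11 in place of 3.18, with warm library 2 at 17.4 in place of 42.9 CPM.

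The same genes were followed in single cells, each thinned to 500 UMIs, which left out cells below that depth and kept 85.6 to 96.1% of the cold and 86.9 to 95% of the warm cells. In principal cells a Fos UMI was seen in 0% of the cold and 50.0, 54.5 and 57.9% of the warm cells, and in monocytes in 0, 2.94 and 2.02% and 36.8, 49.0 and 33.3%. In proximal tubule cells it was seen in 0, 0.0466 and 0% of the cold and 3.33, 4.25 and 3.48% of the warm cells. The share of cells with a Fos UMI was highest in the principal cells among these 3 classes. Hspa1a was seen in no cold endothelial cell and in 55.4, 45.3 and 53.7% of the warm ones, but in the connecting tubule in a mean of 1.53 and 2.16% (exact permutation p = 0.600). In a class of 183 to 6372 cold cells and 75 to 6983 warm cells, a share of 0 limits cells with a UMI and not cells that express the gene. No class here is known to lack these genes, so a share from free RNA could not be set for them.

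The number of these genes found together in a cell also varied by class. Of the 12 stress genes a principal cell held a mean of 0.324, 0.360 and 0.30 after cold and 3.58, 2.48 and 3.79 after warm dissociation at 500 UMIs. Endothelial cells held 0.489, 0.572 and 0.418 and 3.83, 2.90 and 2.92, and macrophages 0.319, 0.284 and 0.290 and 2.36, 1.69 and 2.08. Proximal tubule cells held fewer, at 0.0607, 0.0894 and 0.0678 and 0.332, 0.373 and 0.259. In the distal convoluted tubule the groups overlapped, at 0.145, 0.0792 and 0.0932 and 0.135, 0.228 and 0.439.

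**Figure D4:**
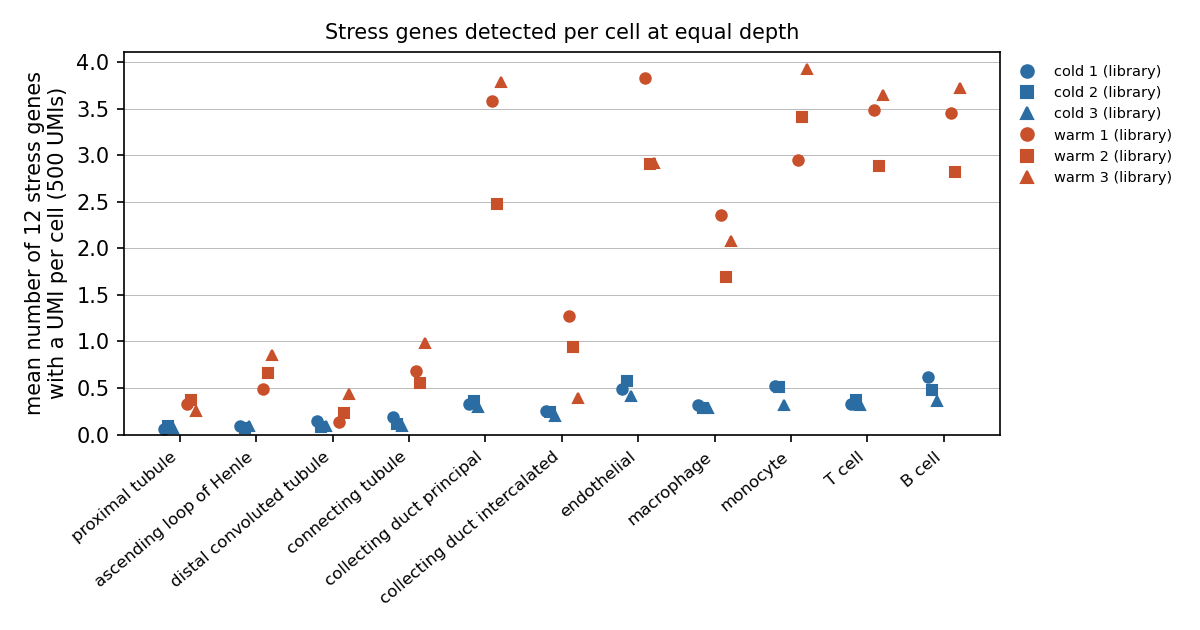
Mean number of 12 stress genes with a UMI per cell, each cell thinned to 500 UMIs, for every library and class. Principal cells reach 2.48 to 3.79 genes and endothelial cells 2.90 to 3.83 in the warm libraries, while proximal tubule cells reach 0.259 to 0.373 and the groups of the distal convoluted tubule overlap.

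Hemoglobin RNA was called lower in most classes after warm dissociation by edgeR, and podocyte markers were lower in some of them. The 4 hemoglobin genes were 0.421, 0.548 and 1.20% of all UMIs in the cold and 0.303, 0.179 and 0.355% in the warm libraries (exact permutation p = 0.10, the smallest possible), and cold library 3 was the highest. Over all cells 3 of 4 were lower (median -1.39), Hbb-bt at -1.81, Hbb-bs at -1.42 and Hba-a1 at -1.34, each called in 1 or 2 of the 6 sets without a library (together -2.15 to -0.73). In the classes Hba-a1 and Hbb-bs were lower in 8 of 11 and Hbb-bt and Hba-a2 in 7 by edgeR. DESeq2 called Hbb-bs in 6 classes and Hba-a1, Hbb-bt and Hba-a2 in 4 each. The groups did not overlap in 6 classes for Hba-a1, 5 for Hba-a2 and 9 each for Hbb-bs and Hbb-bt. The call of Hba-a1 in the proximal tubule held in 1 of the 6 sets (-1.76 to -0.89), and without cold library 3 those of Hba-a1 (-1.20) and Hbb-bs (-1.09) in the loop of Henle were lost. In distal convoluted tubule cells Hba-a1 was at 1540, 1160 and 2840 CPM and 225, 174 and 277 (-3.12 ± 0.26, adjusted p = 7.23e-08). In the connecting tubule warm library 1 stood out with 14100 CPM of summed hemoglobin against 858 and 1780 in the other warm libraries, and Hba-a1 was at 0.10 with it and -2.43 without it. In T cells the same library stood out, with 22900 CPM against 749 and 2200, and 0 of 4 hemoglobin genes were called lower by edgeR. The erythroid markers other than hemoglobin summed to 51.2 to 59.4 CPM after cold and 48.1 to 65.5 after warm dissociation in proximal tubule cells, and overlapped. Of the 4 of them tested over all cells 1 was lower and 0 higher. Alas2, a member of this list, was lower in the 1 class that tested it (-1.33, with the groups apart), a call that DESeq2 did not make.

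The 10 podocyte markers summed to 29.8, 27.5 and 38.2 CPM in proximal tubule cells after cold and 7.77, 10.4 and 9.99 after warm dissociation, and every warm library was below every cold one in B cells, T cells and 3 further tubular classes too. In macrophages the same sum was higher, at 327, 206 and 225 CPM after cold and 552, 345 and 483 after warm dissociation, and in monocytes, endothelial, intercalated and connecting tubule cells the groups overlapped. Podxl, a podocyte sialomucin also made by endothelium, was lower in proximal tubule cells at 4.81, 6.63 and 8.39 CPM and 0.934, 1.20 and 0.641 (-2.72 ± 0.36). Clic3 was at 4.52 to 9.11 CPM in the cold and listed at 0 in the warm proximal tubule. H2-Q6 was at -2.69 and H2-Q7 at -2.0 there, calls that held in 2 and 1 of the 6 sets without a library (-3.49 to -2.49 and -2.33 to -1.35). The share of podocytes in a library moved with these values, as given above, and its part in them was not tested.

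Whether a class responded by more or less than the proximal tubule was tested gene by gene in 1 model, as the difference of the warm against cold log2 changes, over 9311 genes for B cells to 10286 for endothelial cells. Called genes were 83 in principal cells (0.842%), 62 in monocytes (0.649%), 40 in endothelial cells (0.389%) and 40 in cells of the ascending loop of Henle (0.415%). They were 37 in intercalated cells (0.380%), 31 in T cells (0.319%), 23 in B cells (0.247%), 29 in macrophages (0.294%), 17 in the distal convoluted tubule (0.18%) and 10 in the connecting tubule (0.106%). The counts moved with the libraries. Without cold library 1 they were 6 in B cells, 19 in T cells, 24 in intercalated, 17 in connecting tubule and 19 in endothelial cells. Without cold library 2 they were 6 in B cells, 16 in T cells, 22 in the loop of Henle, 18 in intercalated, 26 in principal, 2 in connecting tubule cells, 14 in macrophages and 21 in monocytes. Without cold library 3 they were 11 in B cells, 10 in T cells, 15 in intercalated, 36 in principal and 11 in distal convoluted tubule cells, and 29 in monocytes. Without warm library 1 they were 5 in B cells, 21 in intercalated and 53 in principal cells. Without warm library 2 they were 10 in intercalated and 33 in principal cells and 29 in monocytes, and without warm library 3 14 in B cells and 61 in the loop of Henle.

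Zfp36 rose by more than in the proximal tubule in 5 classes, by 2.80 to 5.15 on the log2 scale, with principal cells at the top. Dnajb1 did so in 5 classes (2.18 to 4.24), with macrophages at the top at 4.24, and Junb in 4 (2.08 to 3.44). In the proximal tubule itself Dnajb1 was at 0.90 (adjusted p = 0.0619) and Junb at 2.54. Neat1 exceeded the proximal tubule in 4 classes by 1.62 to 2.06. Nfkbia did so in 3, among them macrophages (2.35) and monocytes (2.38), and Hsp90aa1 in endothelial cells (2.37) and macrophages (2.63). A difference that involves a gene listed at 0 in a group depends on the prior count of the fit and is no bound.

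Hspa1a went either way. In log2 terms it rose by less than in the proximal tubule in principal (-3.57), intercalated (-2.78), connecting tubule (-4.62) and distal convoluted tubule cells (-3.82). It rose by more in macrophages (4.26) and monocytes (8.44). In each tubular class named here the cold level was higher than in the proximal tubule. Principal cells were at 83.5 to 109 unscaled CPM after cold and 198 to 1170 after warm dissociation. Intercalated cells were at 12.2 to 25.6 and 140 to 248, and the proximal tubule at 0.423 to 1.78 and 19.2 to 105. Warm levels thus lay above the proximal tubule in principal and intercalated cells, and overlapped it in the connecting and distal convoluted tubules. The connecting tubule difference lost its call without cold library 2 (range over the sets -5.82 to -3.60). The distal convoluted tubule difference lost its call without warm library 2 (-5.11 to -2.38). Dusp1 rose by more in T cells (3.36), principal cells (3.02), macrophages (1.68) and monocytes (1.27), and by less in endothelial (-1.57) and distal convoluted tubule cells (-2.15). In endothelial cells Klf2 (-2.50), Klf4 (-3.72) and Klf6 (-2.21), related zinc finger factors, changed by less than in the proximal tubule, where they rose by 2.68, 5.48 and 2.6. Endothelial Klf4 itself was at 122, 96.5 and 79.9 CPM after cold dissociation, against 0.848, 0 and 0.719 in the proximal tubule.

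Txnip, which binds thioredoxin and follows glucose supply, stood below the proximal tubule in 7 classes by -1.91 to -1.25. In the proximal tubule it was at 14.7, 20.1 and 16.1 CPM after cold and 37.3, 86.2 and 18.2 after warm dissociation (1.52, adjusted p = 0.0524), with warm library 2 the highest by far. Without warm library 2 the differences in T cells (-1.23), the loop of Henle (-0.79) and the connecting tubule (-1.05) lost their calls, and that in T cells also without cold library 1 (-1.89) or 3 (-1.72). Ier3 in the loop of Henle was below the proximal tubule by -2.67, and H2-Q6 above it in 5 classes by 3.29 to 3.71, where the proximal tubule value moved with the podocyte share. Igha, an immunoglobulin heavy chain gene, had the largest value in B cells at 8.60, which was -1.81 without warm library 2.

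**Figure D5:**
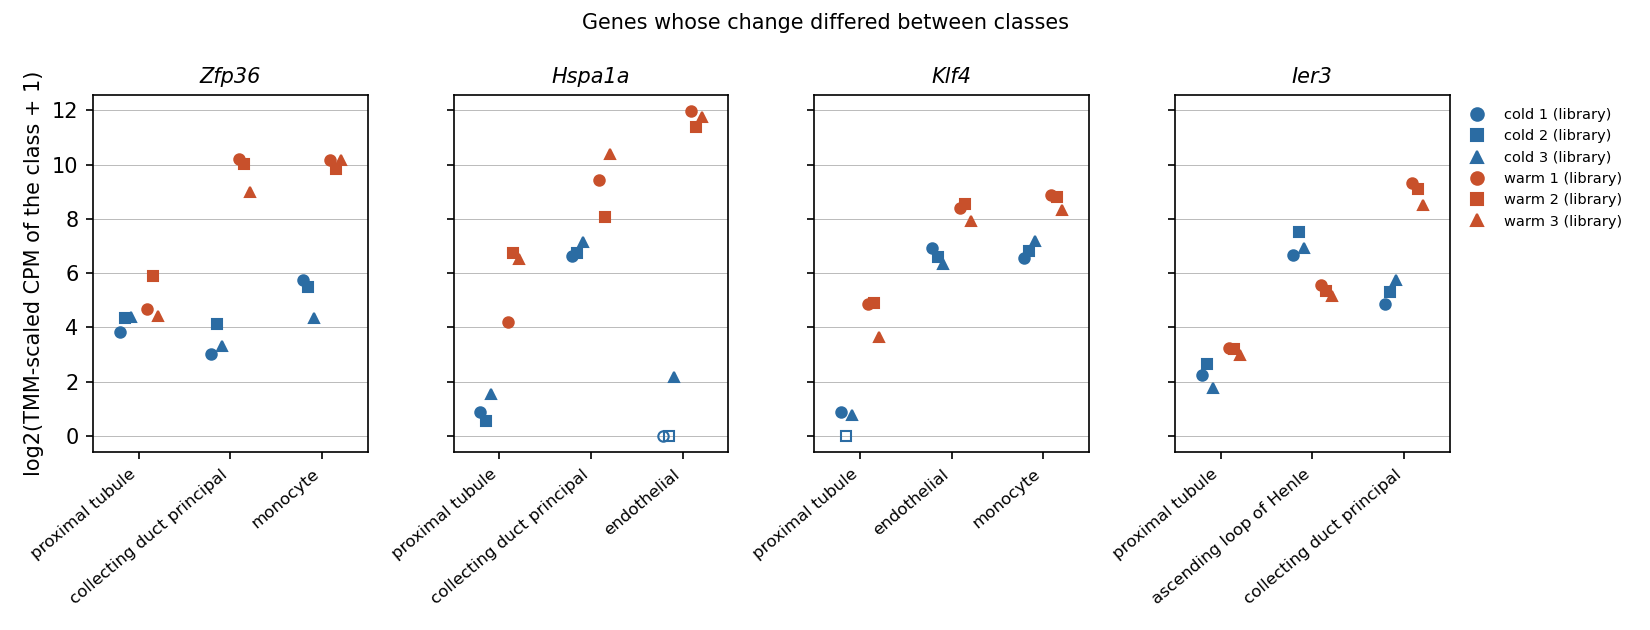
CPM of a class plus 1, on a log2 scale, of Zfp36, Hspa1a, Klf4 and Ier3 in the proximal tubule and other classes, with cold libraries in blue, warm libraries in orange and hollow markers for a gene listed at 0. The gap between the colors is wider in principal cells than in the proximal tubule for Zfp36, narrower for Hspa1a, and turned over in the loop of Henle for Ier3.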

How the data were processed

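UMI counts per gene and cell were deposited by the authors, who made them with Cell Ranger 2.1.1 against mm10 according to the submitters' processing notes. The authors separated cells from empty droplets and filtered cells and genes before deposit, and in the 6 libraries used a gene seen in fewer than 10 cells of a library was mostly listed at 0.

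Cells were clustered (2000 variable genes, 30 principal components, 20 neighbors, Leiden resolution 2, leidenalg 0.10.2), and each of the 34 clusters was named only with at least 3 markers of a class at a fold of 1.5 and in 10% of its cells. Cells that scored as doublets, 0.8% per 1000 cells of a library, were marked and kept. UMI counts were summed per library, over all cells and within each class that had at least 10 cells in at least 2 libraries of each group.

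The test of these sums was edgeR's quasi-likelihood test (edgeR 4.0.16, R 4.3.3) with TMM factors and its filter on low counts, warm against cold, with Benjamini-Hochberg adjustment over all genes tested. Class differences were tested as an interaction with the library as a block, and cell numbers with the total of the library as offset. Exact permutation tests, two-sided, served for single values. The edgeR p-values measure the spread between 3 libraries a group, estimated with information shared over genes. They are not the spread of a gene alone. In the interaction test a small p can stand where a single library carries the value, as for Igha in B cells (8.60, adjusted p = 1.01e-19). Intervals and bounds cover counting error only. The fits were tested on simulated counts with known changes.

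Genes were named by rule. Over all cells these were the 10 largest called changes in each direction with at least 5 CPM in the higher group and, per list, up to 5 called and 3 uncalled members. In classes they were a fixed stress set, the 5 largest called changes in each direction with groups apart, the genes called in the most classes and, for class differences, the 5 smallest p-values in each direction. Other named genes were chosen after their values were seen, and some genes that the rule names are not reported here. The members, gene lists and tests were chosen with earlier results of these data known. Alternatives were RLE factors, DESeq2 1.42.0, no filter on low counts, other naming and clustering, removal of doublets, matched classes, a replicate block and leaving out each library. The settings by depth, cluster and zeros were added after the data were seen.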

Additional observations from a re-analysis of the deposited data

Results flagged for a closer look

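For 372 pairs of a gene and a class the warm against cold change differed from that of the proximal tubule, by a test of the difference itself (the interaction term of edgeR, adjusted p under 0.05). Given here are up to 5 genes of the smallest p in each direction and class. Values are differences of log2 changes, class minus proximal tubule, so a positive one can be a larger rise, a smaller fall or a rise against a fall, and where a gene is listed at 0 in a group the value depends on the prior count of the fit.

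In B cells the difference was positive for Igha (8.60), Junb (2.49), Dnajb1 (3.60), Vps37b (4.00) and Crem (4.31). The change stood below that of the proximal tubule for Btg2 (-3.22), Rsrp1 (-2.33), Id3 (-2.43), Ly6e (-1.14) and Gadd45g (-3.03). Of these, Junb, Vps37b, Crem, Btg2, Rsrp1, Id3, Ly6e and Gadd45g lost the call without at least 1 of the 6 libraries, and Igha was at -1.81 without warm library 2.

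For T cells the difference was positive for Zfp36l2 (2.79), Junb (2.70), Dnajb1 (3.02), Bhlhe40 (3.36) and Pnrc1 (2.18). The difference was negative for Ly6a (-1.91), Id2 (-1.57), Rpl7l1 (-3.84), Hmgb2 (-1.40) and Txnip (-1.91). Of these, Ly6a, Id2, Rpl7l1, Hmgb2 and Txnip lost the call without at least 1 of the 6 libraries.

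In the ascending loop of Henle the difference was positive for Fxyd2 (1.04), Cldn10 (1.14), Enpp2 (1.82), Junb (3.44) and Igfbp7 (0.98). The change stood below that of the proximal tubule for Ier3 (-2.67), Txnip (-1.47), Ggt1 (-1.13), Ly6a (-0.87) and Klk1 (-0.87). Of these, Txnip, Ly6a and Klk1 lost the call without at least 1 of the 6 libraries.

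For intercalated cells the difference was positive for Kl (2.04), Aqp2 (2.64), Zfp36 (2.80), Bhlhe40 (2.51) and Ccnd1 (2.15). The difference was negative for Gadd45a (-1.60), Reep5 (-1.44), Atp6v0e (-0.88), Hbb-bs (-0.88) and Defb1 (-0.98). Aqp2, a marker of principal cells, was at 48.0, 218 and 39.0 scaled CPM in the cold and 512, 646 and 23.7 in the warm intercalated cells, and the part of principal cell RNA in its value was not tested. Of these genes, Ccnd1, Gadd45a, Reep5, Atp6v0e, Hbb-bs and Defb1 lost the call without at least 1 of the 6 libraries.

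In principal cells the difference was positive for Zfp36 (5.15), Gdf15 (4.62), Neat1 (1.62), Kl (1.58) and Junb (2.08). The change stood below that of the proximal tubule for Hspa1a (-3.57), S100a11 (-1.39), Txnip (-1.80), Sgk1 (-2.35) and Akr1b3 (-2.41). Of these, Kl, Sgk1 and Akr1b3 lost the call without at least 1 of the 6 libraries.

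For the connecting tubule the difference was positive for Atp6v1g3 (2.89), mt-Co1 (0.71), Egf (1.39), Idh1 (1.79) and Dnajc6 (4.74). The difference was negative for Hspa1a (-4.62), Txnip (-1.53), S100g (-0.70), Cited2 (-1.20) and Ddit4 (-3.48). Of these, mt-Co1, Egf, Idh1, Dnajc6, Hspa1a, Txnip, S100g, Cited2 and Ddit4 lost the call without at least 1 of the 6 libraries. The value of mt-Co1 set -0.16 in the class against a fall by 0.98 in the proximal tubule. Within the class Atp6v1g3 was at 2.58, a call lost without cold library 2, warm library 2 or warm library 3, and at -0.12 when cells took the name of their own top marker score.

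In the distal convoluted tubule the difference was positive for mt-Nd6 (1.28) and mt-Co1 (0.72). The change stood below that of the proximal tubule for Hba-a1 (-1.61), Pdk4 (-4.02), Hba-a2 (-1.54), Txnip (-1.66) and Hspa1a (-3.82). Of these, mt-Nd6, mt-Co1 and Hspa1a lost the call without at least 1 of the 6 libraries.

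For endothelial cells the difference was positive for Hsp90aa1 (2.37), Jund (1.80), Tmx4 (4.31), H2-Q6 (3.61) and Podxl (2.32). The difference was negative for Klf2 (-2.50), Klf4 (-3.72), Dusp1 (-1.57), Klf6 (-2.21) and Id1 (-1.67). Podxl was at -0.36 in endothelial cells (not called) and fell by 2.72 in the proximal tubule.

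In macrophages the difference was positive for Zfp36 (3.55), Dnajb1 (4.24), Hsp90aa1 (2.63), Ifrd1 (3.61) and Nfkbia (2.35). The change stood below that of the proximal tubule for Fiz1 (-4.66). Of these, Fiz1 lost the call without at least 1 of the 6 libraries.

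For monocytes the difference was positive for Zfp36 (3.79), Nfkbia (2.38), Neat1 (2.02) and S100a8 (3.25). The difference was negative for Stmn1 (-4.16), Klf4 (-3.75), Rsrp1 (-1.51), Hmgb2 (-1.62) and Tubb5 (-1.45). The S100a8 UMIs lay in 8 of 224 cold and 5 of 92 warm monocytes. Of these genes, S100a8 and Tubb5 lost the call without at least 1 of the 6 libraries.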

How the results depend on the processing

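Over all cells, 948 genes were higher and 853 lower in warm libraries. These counts were 927 and 878 with RLE factors, 869 and 574 with DESeq2, 919 and 912 without a filter, and 904 and 892 without mitochondrial and hemoglobin genes. They moved to 238 and 149 with the classes matched and to 136 and 322 with a log2 change of 1 also required. Of the settings chosen after seeing the data, thinning each cell to 500 UMIs gave 467 and 450, genes above 0 in every library gave 1090 and 978 of 11052, and 9 UMIs in place of each 0 gave 1081 and 1129. Leaving out each library in turn gave 190 to 1262 higher and 254 to 1170 lower genes. Within classes, DESeq2 gave 75 genes in the ascending loop of Henle, 14 in intercalated and 37 in principal cells. No filter on low counts gave 110 in T cells, 246 in the loop of Henle, 56 in intercalated cells, 21 in the connecting and 24 in the distal convoluted tubule, 134 in endothelial cells, 147 in macrophages and 174 in monocytes. Cells named by their own score gave 11 in intercalated cells, 4 in the connecting and 15 in the distal convoluted tubule. Among the settings chosen after seeing the data, the loop of Henle gave 12 genes in its shallower and 79 in its deeper cluster, and the proximal tubule 186 after thinning to 500 UMIs and 58 below 2000 UMIs. Class differences over genes above 0 in every library were 24 in intercalated and 65 in endothelial cells. Without 1 library, calls within classes were 36 to 80 in B cells, 36 to 62 in T cells, 46 to 219 in the loop of Henle, 18 to 51 in intercalated, 47 to 89 in principal, 3 to 10 in connecting and 6 to 17 in distal convoluted tubule cells, 43 to 82 in endothelial cells, 50 to 88 in macrophages, 72 to 100 in monocytes and 56 to 1526 in the proximal tubule. Class differences were then 5 to 18, 10 to 28, 22 to 61, 10 to 37, 26 to 73, 2 to 17, 11 to 22, 19 to 52, 14 to 41 and 21 to 72 genes in B cells, T cells, loop of Henle, intercalated, principal, connecting, distal convoluted, endothelial cells, macrophages and monocytes. For cells per class on the log2 scale, TMM factors gave -0.37 in T cells, 0.52 in the connecting tubule, -0.17 in endothelial cells and 0.50 in the proximal tubule. Resolution 1 gave -0.22 in principal cells, and cells named by their own score 0.61 in the connecting tubule and -0.39 in monocytes. Without 1 library these values were -1.30 to -0.80 in B cells, -0.93 to -0.61 in T cells, 1.06 to 1.36 in the loop of Henle, -0.49 to -0.16 in intercalated, -1.46 to -0.88 in principal, 0.09 to 0.22 in connecting and -0.30 to -0.08 in distal convoluted tubule cells, -0.66 to -0.39 in endothelial cells, -0.21 to -0.02 in macrophages, -2.59 to -2.28 in mesangial and mural cells, -1.39 to -0.87 in monocytes, -7.02 to -5.62 in podocytes and 0.14 to 0.24 in the proximal tubule. Warm minus cold medians per cell without 1 library were -116 to 56.3 UMIs in all cells and -2.67 to 196 in the proximal tubule, 5.67 to 20.7 and 11.7 to 26.8 genes at 500 UMIs, and -6.60 to -2.53 and -9.69 to -5.27 percentage points of mitochondrial UMIs. At 1000 UMIs the gene differences were 29.2 in all cells and 41.2 in the proximal tubule. Values that changed direction were Gadd45a (1.38), H2-Q6 (0.29), H2-Ab1 (0.01) and H2-Aa (0.11) with the classes matched, Jund in the shallower loop of Henle cluster (-0.00), Atp6v1g3 in the connecting tubule (-0.12) and S100g in the distal convoluted tubule (-0.57) with cells named by their own score, Hba-a1 in the connecting tubule without warm library 1 (-2.43) and Igha in B cells without warm library 2 (-1.81). Over all sets without 1 library Hba-a1 there ranged from -2.43 to 1.27 and Igha from -1.81 to 8.65. The cause of these changes was not tested. Codes shared in the cell names give pairs of a cold and a warm library, whose deviations correlated at 0.347, 0.0632 and -0.137 over 3058 genes and not all were above 0.1. What the code marks is not given in the sources used here, so the libraries were not taken as paired. A replicate block gave 825 higher and 760 lower genes over all cells, and cold library 3 correlated best with a warm library of another code (0.37). Of 8336 pairs of a named value and an alternative, 7570 kept direction and side of the threshold, 622 lost and 133 gained a call, 9 reversed and 2 moved. For genes listed at 0 the depth allows bounds only.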
